A study of Mus musculus with 15 samples.

Results

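The 34 genes described here encode the enzymes of cholesterol and fatty acid synthesis, the regulators that switch these pathways and a few sterol transporters. They were chosen by symbol, with earlier results of these data known, and all 34 were found among the 24498 genes of the deposited count table. All 34 also passed the filter on low counts, which left 15075 genes for testing. RNA came from cultured primary neurons of the mouse hippocampus that had differentiated for 7 days before a treatment of 24 h. Cultures received acetate at 5 mM or its vehicle, neurobasal medium (NBM), and each of these was combined with an ACSS2 inhibitor at 20 µM or its solvent, DMSO diluted in NBM. ACSS2 joins acetate to coenzyme A, and the acetate was meant to mimic heavy drinking. The groups are DMSO vehicle (no acetate and no inhibitor, 4 libraries), DMSO acetate (acetate alone, 4), inhibitor vehicle (inhibitor alone, 3) and inhibitor acetate (both agents, 4). Strain, sex and age of the animals were not given in the sources used here, and nothing states that replicates were separate cultures, so p-values measure only the spread between these libraries, which may be technical.

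Cholesterol is built from acetyl-CoA, first through the mevalonate arm to farnesyl pyrophosphate and then through squalene and lanosterol to the finished sterol. Palmitate is built from the same precursor by acetyl-CoA carboxylase and fatty acid synthase, and desaturases and elongases then reshape the chain. Most of these genes are targets of the sterol regulatory element-binding proteins, membrane-bound factors that SCAP carries to the Golgi for cleavage when sterols are scarce and that INSIG proteins hold in the endoplasmic reticulum when sterols are plentiful. Cholesterol in the brain is made locally, since plasma lipoproteins do not cross the blood-brain barrier. Sterol export genes such as Abca1 and Abcg1 are switched the opposite way, by liver X receptors that sense oxysterols.

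Gene counts ranged from 19688231 to 39234799 per library, so a single count was worth 0.0277 to 0.0541 CPM (counts scaled to a common library total). All levels are CPM scaled by the trimmed mean of M values (TMM). Defining markers of the labelled cell type were present: all 14 pan-neuronal markers were tested, and their summed level was 5394 to 8240.5 CPM in DMSO vehicle and 6053 to 8129.6 in inhibitor vehicle, against 10304 to 11933 in DMSO acetate and 9524 to 10417 in inhibitor acetate. With acetate 12 of the 14 rose without inhibitor and 11 with it, and 0 fell (edgeR, adjusted p under 0.05). The 8 markers of hippocampal excitatory neurons were mixed. Of these, 4 rose and 1 fell without inhibitor (all genes, 23.7% higher and 27.5% lower), with log2 folds of -0.83 to 1.12. With inhibitor 4 rose and 2 fell (14.5% and 20.6%), with folds of -0.73 to 1.34. Markers of other brain cells were present as well and were uneven. The 13 tested markers of microglia and macrophages summed to 165 to 769.6 CPM in DMSO vehicle and 24.6 to 626 in inhibitor vehicle, against 40 to 60 in DMSO acetate and 36.6 to 82.1 in inhibitor acetate, none of them was at 0 in a whole group, and all 13 fell with acetate both without and with inhibitor (edgeR, adjusted p under 0.05; all genes, 27.5% and 20.6% lower). Of 11 astrocyte markers, 7 fell without inhibitor and 5 with it, and their sum was 4552 to 12500.0 CPM in DMSO vehicle and 4298 to 13602 in inhibitor vehicle, against 3596 to 4460.2 in DMSO acetate and 3162 to 4729 in inhibitor acetate. Of 10 tested vessel markers 7 fell in each arm, 1 rose without inhibitor and 0 rose with it, and of 7 of meninges and fibroblasts 5 and 4 fell and 0 rose. Of 9 tested oligodendrocyte lineage markers 7 and 5 fell and 0 rose, but their sum did not follow: it was 268 to 874 CPM in DMSO vehicle and 229 to 1087 in inhibitor vehicle, against 697 to 983 in DMSO acetate and 424 to 1087 in inhibitor acetate. The mean log2 CPM of 5 lists of non-neuronal markers (astrocytes, oligodendrocyte lineage, microglia and macrophages, vessels, meninges and fibroblasts), called the non-neuronal score here, was 3.67 in DMSO vehicle 1 against 4.76 to 4.99 in DMSO vehicle 2 to 4, and 2.18 in inhibitor vehicle 2 against 4.44 and 4.74 in inhibitor vehicle 1 and 3. It was 2.49 to 2.59 in DMSO acetate and 2.19 to 2.57 in inhibitor acetate. The score therefore moved with acetate, and with 1 vehicle library in each arm, and the part of these markers in the results on sterol and fatty acid genes was not tested. In bulk RNA, fewer cells of a type and less RNA per cell cannot be told apart.

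The control of these genes is known to run through their promoters, so the 250 bases before the transcription start were searched on both strands in RefSeq promoter windows of build GRCm38.p6, for 26 of the 34 genes and 32 windows. The sterol regulatory element core was searched as TCACNCCA, which also holds the longer form TCACNCCAC, and the box of nuclear factor Y, a partner of the sterol-responsive factors, as CCAAT. TCACNCCA occurred in 3 windows (9.38%; 3.67% of all 32851 windows), those of Hmgcs1, Msmo1 and Srebf2, and TCACNCCAC in 1 (3.12%; 1.05%), that of Hmgcs1. CCAAT was in 21 windows (65.6%; 33.8%), and the E-box CACGTG in 7 (21.9%; 6.02%). Over the 14639 windows of genes that passed the low-count filter, the shares were 3.4%, 1.03%, 34.7% and 7.95% in the same order. A match is a description of letters, not a site of binding. The windows of Hmgcs1, with both kinds of box, of Srebf2, the regulator itself (shown up to the start of the annotated gene), and of Mvd, an enzyme with a high fold that has CCAAT boxes and no TCACNCCA here, are shown with that of Abca1, an exporter that moved the other way. Capitals mark TCACNCCA or TCACNCCAC and CCAAT, as read on either strand, and in Abca1 the E-box.
Hmgcs1 (chr13:119690101-119690350, plus strand): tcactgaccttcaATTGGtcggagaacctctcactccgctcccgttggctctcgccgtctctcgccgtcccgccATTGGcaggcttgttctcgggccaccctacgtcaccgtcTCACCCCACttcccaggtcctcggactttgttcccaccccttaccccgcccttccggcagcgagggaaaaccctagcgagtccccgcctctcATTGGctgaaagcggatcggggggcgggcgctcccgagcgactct
Srebf2 (chr15:82147019-82147180, plus strand): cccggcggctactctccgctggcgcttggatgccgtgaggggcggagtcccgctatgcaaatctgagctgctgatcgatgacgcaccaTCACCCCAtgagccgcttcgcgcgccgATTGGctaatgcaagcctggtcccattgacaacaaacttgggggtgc
Mvd (chr8:122443423-122443672, minus strand): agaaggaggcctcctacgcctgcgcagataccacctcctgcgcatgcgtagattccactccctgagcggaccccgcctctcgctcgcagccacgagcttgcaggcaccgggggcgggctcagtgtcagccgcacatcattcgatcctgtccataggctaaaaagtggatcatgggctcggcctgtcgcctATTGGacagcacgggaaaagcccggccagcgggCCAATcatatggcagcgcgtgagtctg
Abca1 (chr4:53159896-53160145, minus strand): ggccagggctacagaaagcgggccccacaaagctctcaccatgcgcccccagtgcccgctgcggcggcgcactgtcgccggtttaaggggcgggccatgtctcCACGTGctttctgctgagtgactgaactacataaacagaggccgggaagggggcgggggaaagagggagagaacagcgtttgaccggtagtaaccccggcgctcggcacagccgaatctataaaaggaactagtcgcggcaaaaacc
Hmgcs1 had 1 TCACNCCAC and 3 CCAAT boxes, Srebf2 had 1 TCACNCCA and 1 CCAAT, Mvd had 2 CCAAT boxes, and Abca1 had 1 E-box and neither of the others. CCAAT also occurred in windows of Srebf1 and Acacb, which, like Abca1, fell with acetate in both arms.

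Levels per length in DMSO vehicle, as mean CPM per kb of exon, spanned a wide range. Fads2, a desaturase of polyunsaturated fatty acids, stood highest at 164 CPM per kb (range over the 4 libraries 152 to 189), followed by Scd2, the main stearoyl-CoA desaturase of brain, at 152 (124 to 217) and Mvd, mevalonate diphosphate decarboxylase, at 120.4 (85.7 to 219). The ranges of these 3 genes overlapped, so their order does not hold beyond the spread. Hmgcs1 followed at 93.9 CPM per kb, Pmvk at 83.8 and Fdps at 65.6, also with overlapping ranges. At the other end were Stard4 at 1.21, Acacb at 0.933 and Idi1 at 0.754 CPM per kb. Some levels are uncertain because the gene shares sequence with others: in 50-base words of the transcripts, Acat2 shared 39.1% (with Acat3), Acaca 30.4%, Fdps 26.2%, Idi1 17.7%, Tm7sf2 9.87% (with the overlapping gene Vps51), Fdft1 9.38%, Scd1 4.56% and Scd2 3.97%. Reads from such words may have been lost or assigned to the other copy.

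Sterol synthesis enzymes such as Mvd, Dhcr7 and Acat2 rose with acetate both without and with the inhibitor, and the exporter Abca1, the carboxylase Acacb and the regulator Srebf1 fell in both. Without inhibitor, 14 of the 34 genes rose and 4 fell at an adjusted p under 0.05 (edgeR quasi-likelihood test, Benjamini-Hochberg over 15075 genes), against 23.7% higher and 27.5% lower among all genes tested. Folds are on the log2 scale throughout, with their standard error (SE). The median log2 fold of the 34 was 0.35, and that of all genes was -0.03. In 9 genes every DMSO acetate library lay above every DMSO vehicle library, and in 2 every one lay below (all genes, 22.1% and 23.3%). With inhibitor, 15 rose and 3 fell (all genes, 14.5% and 20.6%), with a median of 0.43 against -0.03. There the libraries did not overlap in 17 genes, all of them higher with acetate, and in 0 lower (all genes, 16.4% in either direction). Of the 18 sterol synthesis enzymes, 11 rose without inhibitor and 12 with it, and 0 fell in either. The non-neuronal markers given above moved with acetate too.

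**Figure D1:**
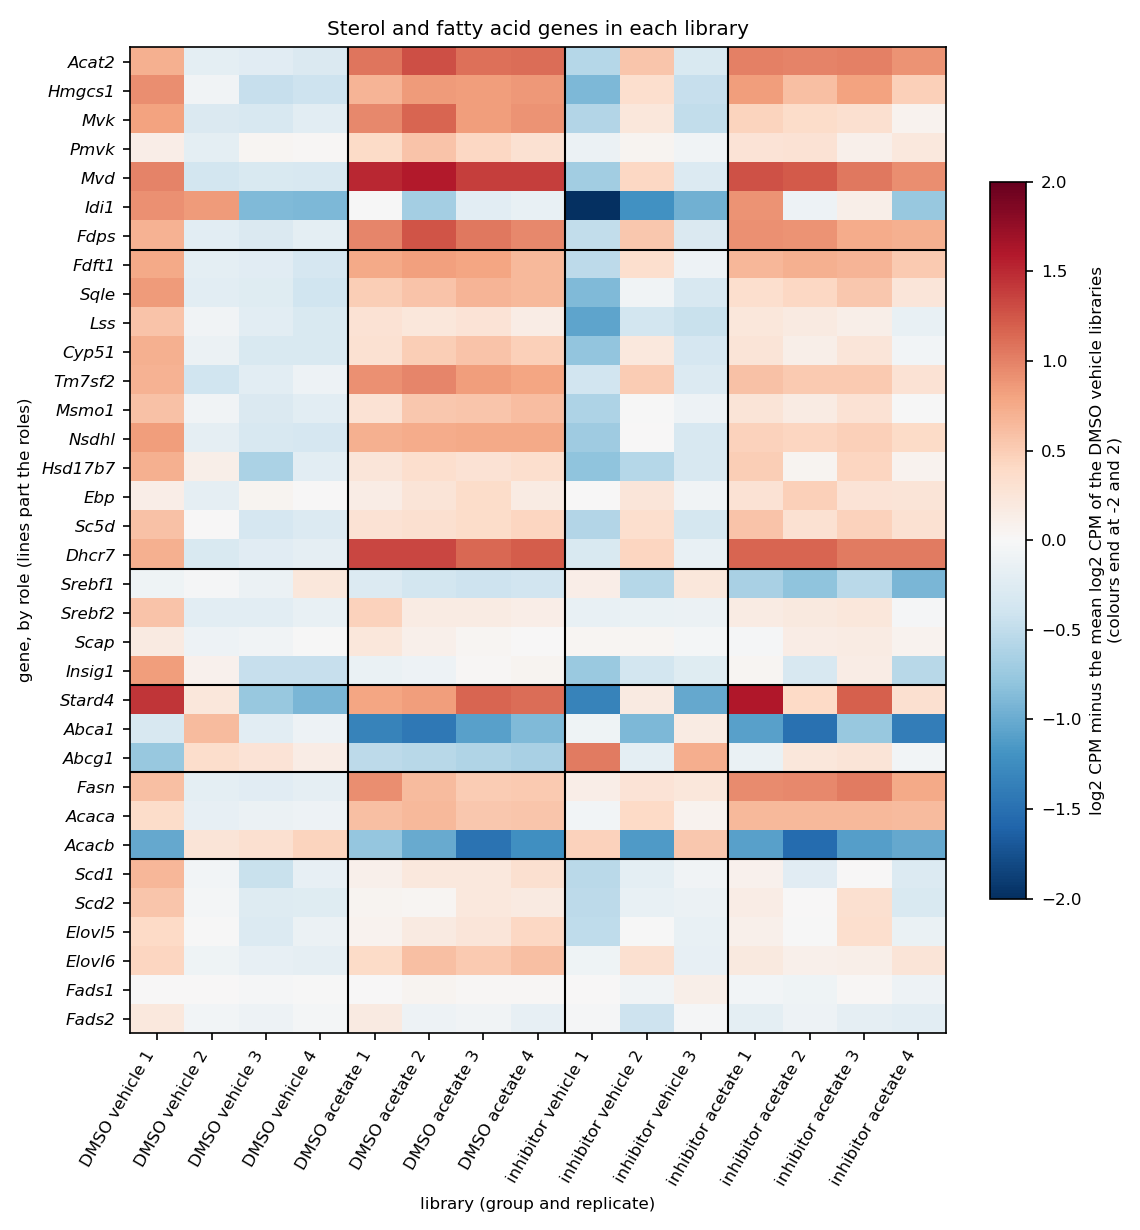
Heat map of the 34 genes (rows, by role) in the 15 libraries (columns, by group), as log2 CPM minus the mean log2 CPM of the 4 DMSO vehicle libraries, so red is above that mean and blue below. Most enzyme rows are red in both acetate groups, and DMSO vehicle 1 and, less so, inhibitor vehicle 2 are also red in rows where the other vehicle libraries are not.

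The mevalonate arm, from acetyl-CoA to farnesyl pyrophosphate, rose in 5 of 7 genes without inhibitor and 6 of 7 with it, and 0 fell (all genes, 23.7% higher and 27.5% lower, then 14.5% and 20.6%). Mvd, which makes isopentenyl diphosphate, had the highest fold of the arm without inhibitor. Its level, in order of replicate, was 406, 159, 166 and 163 CPM in DMSO vehicle, against 585, 616, 532 and 534 CPM in DMSO acetate. With inhibitor the values were 126, 271 and 169 CPM without acetate and 495, 482, 426 and 391 CPM with it. Acetate libraries lay above all vehicle libraries in both arms, though DMSO vehicle 1 stood well above the other 3. The log2 fold was 1.34 (SE 0.28, adjusted p = 0.00131) without inhibitor and 1.25 (SE 0.31, adjusted p = 0.00735) with it.

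Acat2, the cytosolic thiolase that starts the arm, was at 207, 110.2, 108 and 103 CPM in DMSO vehicle, against 266, 307, 270.0 and 275 CPM in DMSO acetate. The inhibitor groups held 85.5, 186 and 103 CPM (vehicle) and 254, 250.2, 254 and 236 CPM (acetate). Every acetate library was above every vehicle library of its arm, with log2 folds of 1.08 (SE 0.23, adjusted p = 0.00150) and 0.99 (SE 0.25, adjusted p = 0.00858). Fdps, farnesyl diphosphate synthase, was at 428, 228, 217 and 230.5 CPM in DMSO vehicle, against 522, 630.1, 549 and 516 CPM in DMSO acetate. Libraries given the inhibitor had 188, 385 and 216 CPM in vehicle and 497, 493, 443 and 434 CPM in acetate. The groups did not overlap in either arm, and the log2 folds were 1.01 (SE 0.23, adjusted p = 0.00206) and 0.83 (SE 0.25, adjusted p = 0.0185). The call with inhibitor was lost without inhibitor vehicle 1 or 3 (log2 folds over all libraries left out in turn 0.64 to 1.21, adjusted p up to 0.0942). Pmvk, phosphomevalonate kinase, showed small differences with little spread, at 157, 125, 146 and 146 CPM in DMSO vehicle, against 187, 212, 191 and 176 CPM in DMSO acetate. In inhibitor vehicle it stood at 132, 149 and 137 CPM, in inhibitor acetate at 173, 175, 153 and 166 CPM. Its acetate libraries were above the vehicle libraries in both arms, with log2 folds of 0.41 (SE 0.08, adjusted p = 0.000720) and 0.26 (SE 0.09, adjusted p = 0.0307). With inhibitor its call was lost without inhibitor vehicle 1 or 3 or without inhibitor acetate 1, 2 or 4 (0.23 to 0.31, adjusted p up to 0.109).

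Hmgcs1, HMG-CoA synthase, was at 759, 378, 288 and 299 CPM in DMSO vehicle, against 635, 718, 706 and 727 CPM in DMSO acetate. For the inhibitor groups, 212, 499 and 287 CPM were measured in vehicle and 708, 599, 689 and 551 CPM in acetate. DMSO vehicle 1 was the highest library of all 15, so the groups without inhibitor overlapped, and the log2 fold was 0.69 (SE 0.28, adjusted p = 0.0533). Without DMSO vehicle 1 it was 1.1 and passed the test, as it did, at folds near the first, without inhibitor vehicle 1 or 2. DMSO vehicle 1 and inhibitor vehicle 2 stood apart in most of these genes, as given below. Calls gained without either library, here and below, therefore follow in part from that choice. With inhibitor the groups did not overlap and Hmgcs1 rose by 0.94 (SE 0.31, adjusted p = 0.0309), a call lost without inhibitor vehicle 1 or 3 or inhibitor acetate 1 or 3 (0.70 to 1.35, adjusted p up to 0.141). Mvk, mevalonate kinase, went from 116 to 254 CPM in DMSO vehicle and 96 to 168 in inhibitor vehicle to 257 to 324 in DMSO acetate and 151 to 198 in inhibitor acetate. It rose by 0.89 (SE 0.23, adjusted p = 0.00543) without inhibitor, where the groups did not overlap, and its fold was 0.55 (SE 0.25, adjusted p = 0.106) with inhibitor, where they did; without inhibitor vehicle 2 that fold was 0.85 (adjusted p = 0.0143). Idi1, isopentenyl-diphosphate isomerase, was near the floor of the data, at 1.19 to 4.18, 0.521 to 1.13, 1.38 to 2.19 and 1.3 to 4.14 CPM in the same order. Its log2 fold was -0.51 (SE 0.43, adjusted p = 0.339) without inhibitor and 1.5 (SE 0.51, adjusted p = 0.0334) with it, the last lost without inhibitor vehicle 1 or 3 or inhibitor acetate 1 or 3 (1.13 to 1.75, adjusted p up to 0.135).

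The squalene and sterol ring arm rose in 6 of 11 genes in each comparison, and 0 fell (all genes, 23.7% higher and 27.5% lower without inhibitor, 14.5% and 20.6% with it). Dhcr7, which reduces the last double bond on the way to cholesterol, had the smallest p of all 34 genes in both comparisons. It was at 218, 108, 113 and 118 CPM in DMSO vehicle, against 335, 335, 295 and 306 CPM in DMSO acetate. Inhibitor vehicle had 108, 179 and 119.7 CPM and inhibitor acetate 297, 296, 274 and 272 CPM. Acetate libraries lay above vehicle libraries in both arms, with the vehicle libraries DMSO vehicle 1 and inhibitor vehicle 2 nearest to them. The log2 folds were 1.19 (SE 0.20, adjusted p = 0.000289) and 1.07 (SE 0.22, adjusted p = 0.00280).

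Fdft1, squalene synthase, was at 252, 129, 127 and 117 CPM in DMSO vehicle, against 249, 261, 255 and 232 CPM in DMSO acetate. With inhibitor the values were 104, 188 and 138 CPM without acetate and 235, 243, 237 and 213 CPM with it. DMSO vehicle 1 lay among the acetate libraries, whereas with inhibitor the groups were apart, and the log2 folds were 0.67 (SE 0.21, adjusted p = 0.0157) and 0.70 (SE 0.23, adjusted p = 0.0310). The first call was lost without DMSO vehicle 2, 3 or 4 (0.55 to 0.99, adjusted p up to 0.0537), and the other without inhibitor vehicle 1 or 3 or inhibitor acetate 1, 2 or 3 (0.51 to 0.94, adjusted p up to 0.145). Sqle, squalene monooxygenase and a rate-limiting enzyme, was at 319.8, 154, 151 and 135 CPM in DMSO vehicle, against 251, 263, 286 and 279 CPM in DMSO acetate. The inhibitor groups held 96.5, 169 and 142 CPM (vehicle) and 225, 236, 257 and 209.9 CPM (acetate). Again DMSO vehicle 1 was the highest of the 15 libraries, and the fold without inhibitor, 0.51 (SE 0.23, adjusted p = 0.0744), did not pass; without that library it was 0.87 and did. With inhibitor, where no library overlapped, Sqle rose by 0.77 (SE 0.25, adjusted p = 0.0268), and this call was lost without inhibitor vehicle 1 or 3 or inhibitor acetate 2 or 3 (0.58 to 0.96, adjusted p up to 0.129).

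Nsdhl, a decarboxylating sterol dehydrogenase, was at 122, 60.9, 55.1 and 54.9 CPM in DMSO vehicle, against 112, 116, 116 and 116 CPM in DMSO acetate. Libraries given the inhibitor had 42.3, 69.5 and 55.3 CPM in vehicle and 94.5, 93.3, 95.6 and 89.7 CPM in acetate. DMSO vehicle 1 exceeded every DMSO acetate library, while the other 3 vehicle libraries were all below them. Nsdhl rose by 0.65 (SE 0.21, adjusted p = 0.0195), a call lost without DMSO vehicle 2, 3 or 4 (0.52 to 1.0, adjusted p up to 0.0654), and by 0.74 (SE 0.23, adjusted p = 0.0241) with inhibitor, a call lost without inhibitor vehicle 1 or 3 (0.59 to 0.94, adjusted p up to 0.116). Tm7sf2, a sterol reductase, was at 110.3, 51.7, 59.1 and 63.5 CPM in DMSO vehicle, against 128, 134, 121 and 117 CPM in DMSO acetate. In inhibitor vehicle it stood at 52.1, 97.1 and 56.5 CPM, in inhibitor acetate at 102, 97.7, 97.7 and 83.1 CPM. The groups were apart without inhibitor, where it rose by 0.81 (SE 0.22, adjusted p = 0.00575), and overlapped with it, where its fold was 0.47 (SE 0.23, adjusted p = 0.132), or 0.81 (adjusted p = 0.00802) without inhibitor vehicle 2.

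Lss, lanosterol synthase, was at 113, 72.1, 65.4 and 61.3 CPM in DMSO vehicle, against 92, 88.3, 91.6 and 83.6 CPM in DMSO acetate. For the inhibitor groups, 36.5, 58.3 and 55.2 CPM were measured in vehicle and 88.5, 85.1, 81.7 and 68.4 CPM in acetate. DMSO vehicle 1 was above all DMSO acetate libraries, and the log2 fold without inhibitor was 0.19 (SE 0.17, adjusted p = 0.373); without that library it was 0.41 (adjusted p = 0.0159). With inhibitor the groups were apart and Lss rose by 0.70 (SE 0.19, adjusted p = 0.0128), lost without inhibitor vehicle 1 (0.52 to 0.82, adjusted p up to 0.0688). Hsd17b7, which reduces a sterol ketone, was at 37.4, 24.9, 14.8 and 19.8 CPM in DMSO vehicle, against 27.1, 28.9, 27.8 and 28.8 CPM in DMSO acetate. Inhibitor vehicle had 13, 15.4 and 18.3 CPM and inhibitor acetate 32.3, 23.8, 30.7 and 23.9 CPM. Its folds were 0.21 (SE 0.21, adjusted p = 0.411), with overlap, and 0.83 (SE 0.23, adjusted p = 0.0144), without overlap, the latter call lost without inhibitor vehicle 1 (0.72 to 0.96, adjusted p up to 0.0713). Its first fold was 0.49 (adjusted p = 0.0192) without DMSO vehicle 1. Of the remaining enzymes, Msmo1, a sterol methyl oxidase, rose by 0.46 (SE 0.17, adjusted p = 0.0357) without inhibitor, lost in 6 of 15 omissions of a library, DMSO vehicle 2, 3 or 4 and DMSO acetate 2, 3 or 4 (0.36 to 0.68, adjusted p up to 0.114). Ebp, a sterol isomerase, rose by 0.23 (SE 0.09, adjusted p = 0.0434) without inhibitor, lost in 9 of 15 omissions, DMSO vehicle 2, 3 or 4, DMSO acetate 2 or 3, inhibitor vehicle 1 and inhibitor acetate 1, 3 or 4 (0.16 to 0.26, adjusted p up to 0.157). Their folds with inhibitor were 0.40 and 0.26. Cyp51, lanosterol demethylase, had folds of 0.40 and 0.39, and Sc5d, sterol desaturase, 0.30 and 0.56, none past the threshold. Without DMSO vehicle 1 the fold without inhibitor was 0.69 (adjusted p = 0.00316) for Cyp51 and 0.53 (adjusted p = 0.0138) for Sc5d. Without inhibitor vehicle 2 the fold with inhibitor was 0.70 (adjusted p = 0.0267) for Cyp51, 0.88 (adjusted p = 0.00253) for Sc5d and 0.36 (adjusted p = 0.00916) for Ebp.

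**Figure D2:**
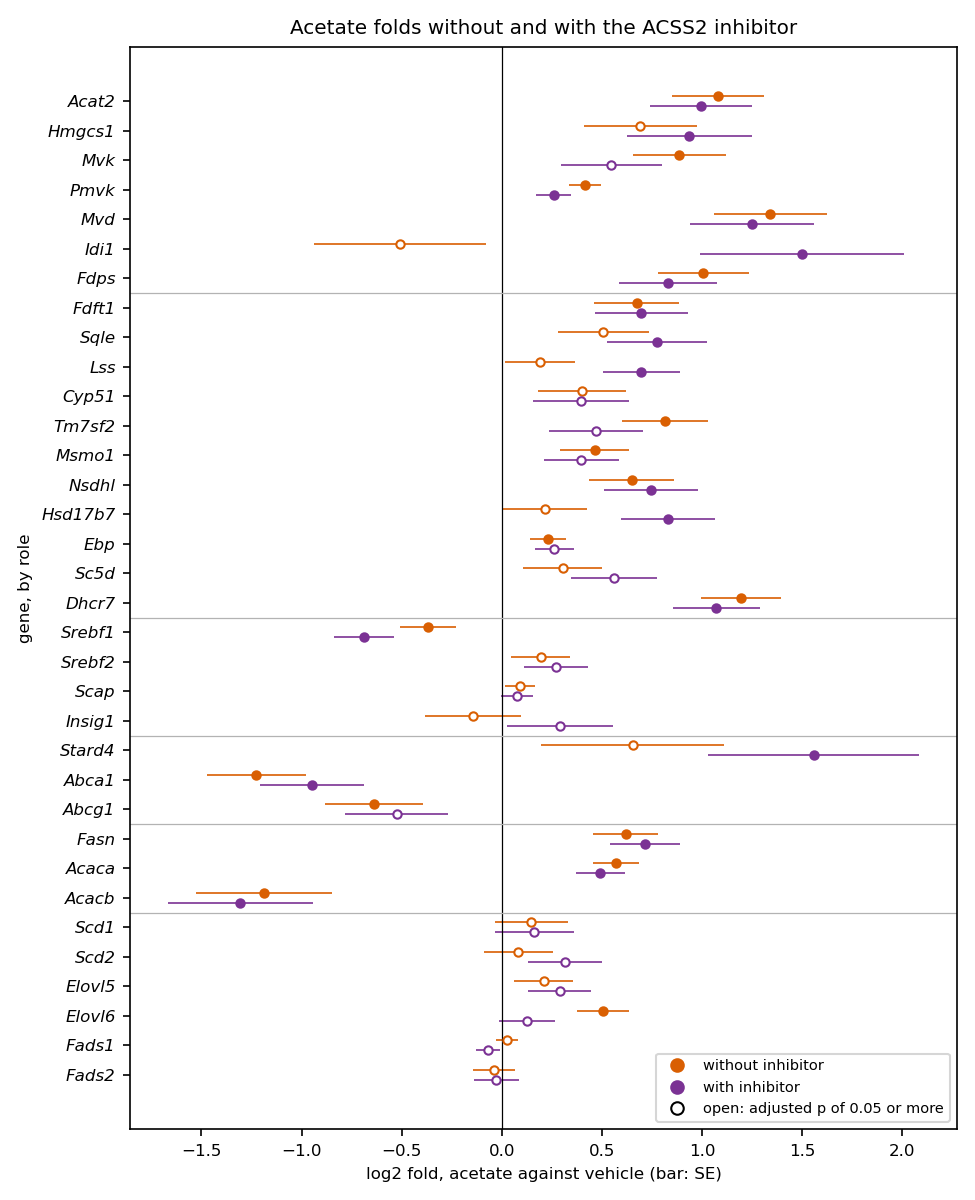
Log2 folds of acetate against vehicle (points, with SE as bars) for the 34 genes by role, without inhibitor in orange and with it in purple, where filled points passed an adjusted p of 0.05. Mvd and Dhcr7 lie beyond 1 in both arms, and Srebf1, Abca1, Abcg1 and Acacb lie below 0 in both.

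Of the 4 regulators, 0 rose and 1 fell in each comparison (all genes, 23.7% higher and 27.5% lower without inhibitor, 14.5% and 20.6% with it). So few genes do not set the role apart from all genes. Srebf1, which encodes the factor best known for fatty acid synthesis genes and is itself a liver X receptor target, was at 127, 132, 124 and 158 CPM in DMSO vehicle, against 111, 104, 101 and 103 CPM in DMSO acetate. With inhibitor the values were 147, 90.6 and 157 CPM without acetate and 85.6, 77.1, 93 and 71.5 CPM with it. All DMSO acetate libraries were below all DMSO vehicle libraries, while inhibitor vehicle 2 was level with inhibitor acetate. Srebf1 fell with log2 folds of -0.37 (SE 0.14, adjusted p = 0.0384) and -0.69 (SE 0.15, adjusted p = 0.00390). The first call was lost without DMSO vehicle 2 or 4 or any DMSO acetate library (-0.42 to -0.30, adjusted p up to 0.111).

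Srebf2, the factor of sterol synthesis genes, was at 416, 241, 241 and 253 CPM in DMSO vehicle, against 385, 314, 313 and 305 CPM in DMSO acetate. The inhibitor groups held 253, 255 and 259 CPM (vehicle) and 313, 319, 327 and 274 CPM (acetate). DMSO vehicle 1 was the highest library, the groups overlapped without inhibitor, and with it inhibitor acetate lay above inhibitor vehicle by a small margin. The log2 folds were 0.19 (SE 0.15, adjusted p = 0.287) and 0.27 (SE 0.16, adjusted p = 0.209), and did not pass; without DMSO vehicle 1 the first was 0.41 (adjusted p = 0.000901). Insig1, which retains the factors and is a target of theirs, was at 111, 65.8, 45 and 45.2 CPM in DMSO vehicle, against 56.4, 58, 63.3 and 64.4 CPM in DMSO acetate. Libraries given the inhibitor had 37.1, 48.3 and 52.4 CPM in vehicle and 63.8, 49.5, 68.9 and 42.3 CPM in acetate. Its libraries overlapped in both arms, with DMSO vehicle 1 far above all others, and the folds were -0.14 (SE 0.24, adjusted p = 0.638) and 0.29 (SE 0.26, adjusted p = 0.417); without that library the first was 0.20 (adjusted p = 0.338). Scap, the escort, was at 174, 143, 147 and 152 CPM in DMSO vehicle, against 180.0, 164, 157 and 154 CPM in DMSO acetate. In inhibitor vehicle it stood at 158, 157 and 149.7 CPM, in inhibitor acetate at 150.2, 171, 172 and 161 CPM. Its folds of 0.09 (SE 0.07, adjusted p = 0.320) and 0.08 (SE 0.08, adjusted p = 0.480) were within the spread.

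Of the 3 genes of sterol transport, 0 rose and 2 fell without inhibitor (all genes, 23.7% higher and 27.5% lower), and 1 rose and 1 fell with it (14.5% and 20.6%), too few to set the role apart. Abca1, which hands cholesterol to apolipoproteins, was at 44.9, 86.8, 48.6 and 52.2 CPM in DMSO vehicle, against 22.1, 20.8, 26.3 and 30.5 CPM in DMSO acetate. For the inhibitor groups, 52.9, 30.2 and 62.6 CPM were measured in vehicle and 26.3, 19.9, 33.1 and 21.5 CPM in acetate. Every DMSO acetate library was below every DMSO vehicle library, and with inhibitor the low library inhibitor vehicle 2 fell within the acetate range. Abca1 fell with log2 folds of -1.23 (SE 0.25, adjusted p = 0.000973) and -0.95 (SE 0.26, adjusted p = 0.0127); the second call was lost without inhibitor vehicle 1 or 3 (-1.19 to -0.72, adjusted p up to 0.0813).

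Abcg1, an exporter to lipoprotein particles, was at 6.51, 14, 13.3 and 12.2 CPM in DMSO vehicle, against 7.71, 7.5, 7.3 and 7.03 CPM in DMSO acetate. Inhibitor vehicle had 22.6, 9.66 and 18.2 CPM and inhibitor acetate 10.1, 12.9, 13.2 and 10.7 CPM. DMSO vehicle 1 was the lowest library of the 15, below DMSO acetate, and the other vehicle libraries were above. Abcg1 fell with a log2 fold of -0.64 (SE 0.24, adjusted p = 0.0391) without inhibitor, a call lost without DMSO vehicle 2, 3 or 4 or any DMSO acetate library (-0.85 to -0.54, adjusted p up to 0.108), and its fold with inhibitor was -0.53 (SE 0.26, adjusted p = 0.124), or -0.80 (adjusted p = 0.00793) without inhibitor vehicle 2. Stard4, a soluble sterol carrier induced when sterols are low, was scarce, at 14.6, 6.32, 3.2 and 2.87 CPM in DMSO vehicle, against 9.29, 9.57, 12.1 and 11.7 CPM in DMSO acetate. With inhibitor the values were 2.13, 6.11 and 2.65 CPM without acetate and 16.3, 7.12, 12.3 and 6.75 CPM with it. Its log2 fold was 0.65 (SE 0.46, adjusted p = 0.244) without inhibitor, with DMSO vehicle 1 high, and 1.34 (adjusted p = 0.00888) without that library. It rose by 1.56 (SE 0.53, adjusted p = 0.0330) with inhibitor, lost without inhibitor vehicle 1 or 3 or inhibitor acetate 1 or 3 (1.27 to 2.15, adjusted p up to 0.134).

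Of the 3 genes that build palmitate, 2 rose and 1 fell in each comparison (all genes, 23.7% higher and 27.5% lower without inhibitor, 14.5% and 20.6% with it), too few to set the role apart. Fasn, fatty acid synthase, was at 759, 437, 429.9 and 443 CPM in DMSO vehicle, against 957, 780.0, 716 and 723 CPM in DMSO acetate. The inhibitor groups held 547, 607 and 585 CPM (vehicle) and 961, 971, 1031 and 844 CPM (acetate). Inhibitor vehicle libraries were tightly grouped and all below inhibitor acetate, and DMSO vehicle 1 fell among DMSO acetate libraries. Fasn rose by 0.62 (SE 0.16, adjusted p = 0.00529) and 0.71 (SE 0.18, adjusted p = 0.00721). Acaca, the carboxylase that supplies malonyl-CoA for synthesis, was at 81.8, 56.6, 58.1 and 59.1 CPM in DMSO vehicle, against 95.9, 98.7, 92.1 and 92.4 CPM in DMSO acetate. Libraries given the inhibitor had 60.6, 83.6 and 66 CPM in vehicle and 98.8, 98.6, 98.9 and 97.6 CPM in acetate. Groups were apart in both arms, and Acaca rose by 0.57 (SE 0.11, adjusted p = 0.000893) and 0.49 (SE 0.12, adjusted p = 0.00762).

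Acacb, the mitochondrial carboxylase whose malonyl-CoA restrains fatty acid oxidation, was at 4.14, 9.97, 10.5 and 11.4 CPM in DMSO vehicle, against 4.91, 4.18, 3.0 and 3.57 CPM in DMSO acetate. In inhibitor vehicle it stood at 11.6, 3.83 and 12.2 CPM, in inhibitor acetate at 3.96, 2.89, 3.89 and 4.14 CPM. DMSO vehicle 1 and inhibitor vehicle 2 were at the level of the acetate libraries, and the other 5 vehicle libraries were above them. Acacb fell with log2 folds of -1.19 (SE 0.34, adjusted p = 0.00911) and -1.31 (SE 0.36, adjusted p = 0.0132), and the second call was lost without inhibitor vehicle 1 or 3 (-1.67 to -1.05, adjusted p up to 0.0745).

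Of the 6 desaturases and elongases, 1 rose without inhibitor, 0 with it, and 0 fell. These counts were not above the shares of all genes (23.7% higher and 27.5% lower without inhibitor, 14.5% and 20.6% with it). Elovl6, which elongates palmitate, was at 158, 110.4, 105 and 104 CPM in DMSO vehicle, against 154, 178, 169 and 178 CPM in DMSO acetate. For the inhibitor groups, 111, 147 and 105 CPM were measured in vehicle and 135, 126, 127 and 140.1 CPM in acetate. DMSO vehicle 1 lay among DMSO acetate and the others below, and Elovl6 rose by 0.51 (SE 0.13, adjusted p = 0.00462) without inhibitor; its fold with inhibitor was 0.13 (SE 0.14, adjusted p = 0.505). Scd2, the desaturase with the high level per length, was at 1185, 786, 678 and 681 CPM in DMSO vehicle, against 842, 834, 936 and 914 CPM in DMSO acetate. Inhibitor vehicle had 564, 728 and 748 CPM and inhibitor acetate 902, 814, 1010.5 and 655 CPM. The groups overlapped, and its folds were 0.08 (SE 0.17, adjusted p = 0.705) and 0.31 (SE 0.19, adjusted p = 0.202); without DMSO vehicle 1 the first was 0.29 (adjusted p = 0.0783). Scd1, its close relative, was at 155, 95.1, 72 and 87.5 CPM in DMSO vehicle, against 105, 113, 113 and 123 CPM in DMSO acetate. With inhibitor the values were 67.8, 86.1 and 93.1 CPM without acetate and 104, 84.3, 98.3 and 81.5 CPM with it. Overlap was again present in both arms, with folds of 0.15 (SE 0.18, adjusted p = 0.516) and 0.16 (SE 0.20, adjusted p = 0.553). The first was 0.41 (adjusted p = 0.0115) and passed without DMSO vehicle 1.

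Elovl5, an elongase of polyunsaturated chains, was at 72.9, 55, 45.4 and 50.7 CPM in DMSO vehicle, against 57.8, 62.6, 65.4 and 73.2 CPM in DMSO acetate. The inhibitor groups held 38.6, 55.1 and 49.9 CPM (vehicle) and 59.3, 55, 69.3 and 50 CPM (acetate). Its folds of 0.21 (SE 0.15, adjusted p = 0.247) and 0.29 (SE 0.16, adjusted p = 0.175) did not pass, though the first did without DMSO vehicle 1, at 0.35 (adjusted p = 0.0350). Fads1, the delta-5 desaturase, was nearly level in all libraries, at 265, 265, 259 and 262 CPM in DMSO vehicle, against 263, 274, 267 and 266 CPM in DMSO acetate. Libraries given the inhibitor had 263, 249.9 and 284 CPM in vehicle and 253, 248, 268 and 245 CPM in acetate. Its folds were 0.03 (SE 0.06, adjusted p = 0.703) and -0.07 (SE 0.06, adjusted p = 0.405). Fads2 held 502 to 624 CPM in DMSO vehicle and 403 to 532 in inhibitor vehicle, against 481 to 614 and 466 to 504 in the matching acetate groups, with folds of -0.04 and -0.03.

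**Figure D3:**
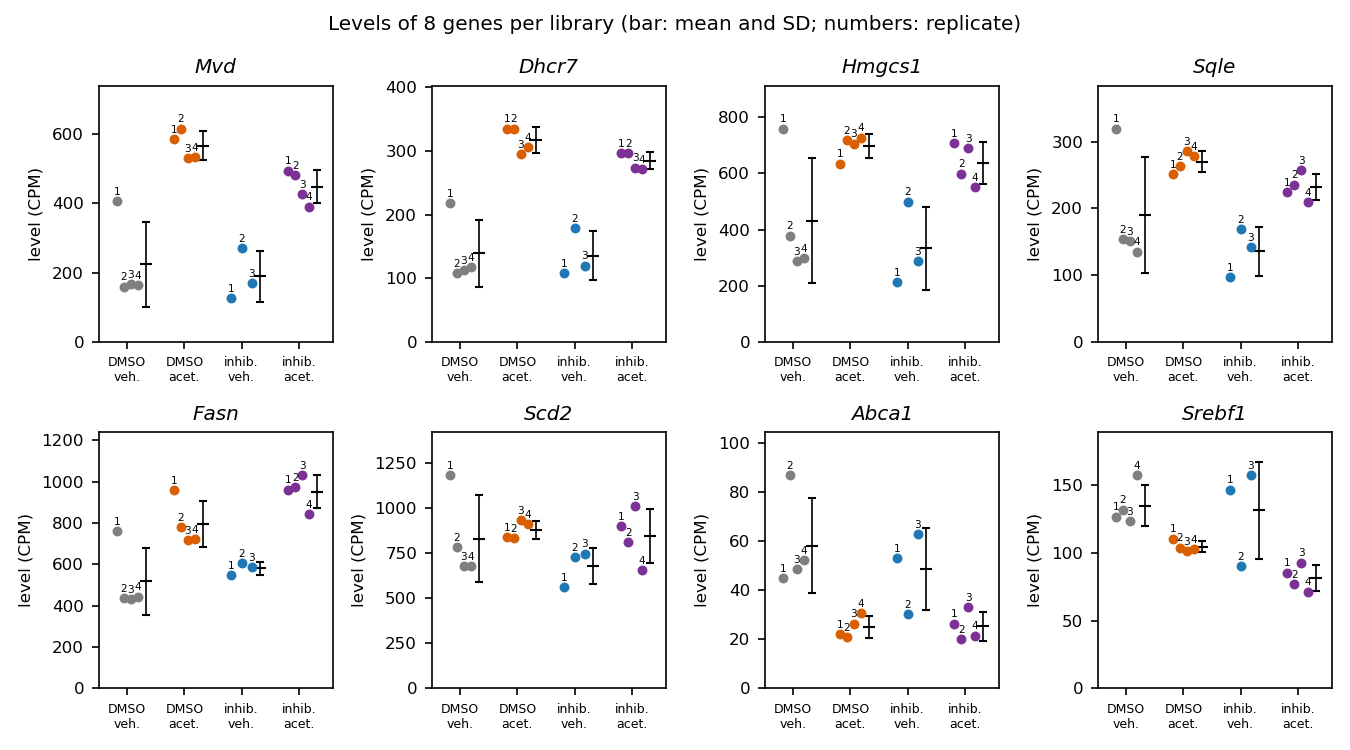
Levels in CPM of 8 genes in each library (points, numbered by replicate), with the mean and SD of each group beside them. DMSO vehicle 1 is apart from the other DMSO vehicle libraries for Mvd, Dhcr7, Hmgcs1, Sqle, Fasn and Scd2, and acetate libraries are above every vehicle library of their arm for Mvd and Dhcr7.

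The acetate comparisons have separate vehicle groups, and the test of whether acetate acted differently with inhibitor called 0 of the 34 genes (edgeR; all genes, 0.0133% higher and 0.00663% lower). At an unadjusted p under 0.05 there was 1, Idi1, with a difference of 2.01 (SE 0.66, adjusted p = 0.110) at levels of a few CPM. DESeq2 called more genes, 263 higher and 716 lower of all 15075, and of the 34 it called 1 higher, also Idi1. Of the 34 genes, 9 rose in both arms, a count and not a test: Acat2, Pmvk, Mvd, Fdps, Fdft1, Nsdhl, Dhcr7, Fasn and Acaca. Mvk, Tm7sf2, Msmo1, Ebp and Elovl6 passed without inhibitor alone, and Hmgcs1, Idi1, Sqle, Lss, Hsd17b7 and Stard4 with inhibitor alone, but no difference between arms passed for any of them in this fit. The largest difference after Idi1 by p was Elovl6 at -0.38 (SE 0.19, adjusted p = 0.276), then Hsd17b7 at 0.61 (SE 0.31, adjusted p = 0.286) and Lss at 0.50 (SE 0.26, adjusted p = 0.288).

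The inhibitor itself called 0 of the 34 genes against DMSO without acetate (edgeR; all genes, 3.47% higher and 1.99% lower) and 0 with acetate (2.36% and 3.42%). Each of these comparisons shares its groups with an acetate comparison. Without acetate 26 of the 34 folds were below 0, with a median of -0.18, and with acetate 27, with a median of -0.13. The first of these depended on which vehicle libraries were kept. Without DMSO vehicle 1, 17 of the 34 were above 0 and 17 below, with a median of 0.0087. Without inhibitor vehicle 2 only 5 of the 34 were above 0, and without both libraries 12 were. At an unadjusted p under 0.05, 1 gene was higher and 3 lower without acetate, and 1 higher and 4 lower with acetate. DESeq2 called 2 lower without acetate, Idi1 and Lss (all 15075 genes, 954 higher and 682 lower). With acetate it called 1 lower, Mvk (all genes, 589 higher and 868 lower). The smallest adjusted p was that of Lss without acetate, at -0.64 (SE 0.19, adjusted p = 0.0610), whose inhibitor vehicle libraries were all below the DMSO vehicle libraries. Leaving out 1 library without acetate brought Idi1 and Lss past the threshold as lower (without DMSO vehicle 4, -1.84 and -0.74), Hsd17b7 as lower (without DMSO vehicle 3, -0.81) and Fasn as higher (without DMSO vehicle 1, 0.41 from 0.16).

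With acetate, every inhibitor library was below every DMSO library in 11 of the 34 genes and above in 1 (all genes, 12.4% and 8.96%). The 11 were Acat2, Mvk, Pmvk, Mvd, Fdps, Cyp51, Tm7sf2, Nsdhl, Srebf1, Scd1 and Elovl6, and the 1 was Abcg1. Mvk had the smallest p, with a log2 fold of -0.66 (SE 0.23, adjusted p = 0.102). Without DMSO vehicle 1 Mvk, Elovl6 and Abcg1 passed, and without inhibitor vehicle 2 Mvk, Srebf1 and Abcg1, at folds close to those of all libraries. In a fit of only these 8 libraries, 9 genes were lower and 1 higher (all genes, 10.6% and 8.58%): Mvk at -0.65 (adjusted p = 0.000391), Mvd at -0.33 (adjusted p = 0.0188), Srebf1 at -0.34 (adjusted p = 0.00795), Elovl6 at -0.35 (adjusted p = 0.00364), Cyp51, Tm7sf2, Msmo1, Nsdhl and Scd1, and Abcg1 higher at 0.67 (adjusted p = 0.00102). This fit leaves the uneven vehicle libraries out of the estimate of spread. Acss2, the gene of the enzyme that is inhibited, was at 35.7, 21.5, 22.8 and 23 CPM in DMSO vehicle, against 30.6, 30.6, 31.6 and 29.5 CPM in DMSO acetate. In inhibitor vehicle it stood at 15.5, 18.3 and 20.5 CPM, in inhibitor acetate at 26.8, 24.5, 29.2 and 20.8 CPM. In the fit of all 15 libraries Acss2 rose by 0.49 (SE 0.16, adjusted p = 0.0319) with acetate in the presence of inhibitor. That call was lost without inhibitor vehicle 1 or inhibitor acetate 1, 2 or 3 (0.39 to 0.59, adjusted p up to 0.138). Its acetate fold without inhibitor was 0.25 (SE 0.15, adjusted p = 0.177), or 0.43 (adjusted p = 0.00425) without DMSO vehicle 1. For the inhibitor its folds were -0.51 (SE 0.16, adjusted p = 0.0716) without acetate and -0.27 (SE 0.15, adjusted p = 0.305) with it.

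The vehicle libraries did not agree among themselves on the sterol enzymes. DMSO vehicle 1 was above the other 3 DMSO vehicle libraries for all 18 enzymes, at 1.12 to 2.49 times their mean, with a median of 1.93, and for 29 of the 34 genes (all genes, 34.1% above and 36.8% below). It was below them for Abca1, Abcg1 and Acacb, and within their range for Srebf1 and Fads1. Inhibitor vehicle 2 was above the other 2 inhibitor vehicle libraries for 16 of 18 enzymes, with a median of 1.57 times, and for 21 of the 34 genes (all genes, 42.3% above and 39.0% below). Both were also the vehicle libraries with the lowest non-neuronal score of their group. The mean log2 CPM of the 18 enzymes was 7.14 in DMSO vehicle 1 against 6.16 to 6.34 in the other 3, and 7.08 to 7.16 in DMSO acetate. It was 6.57 in inhibitor vehicle 2 against 5.79 and 6.14 in the others, and 6.76 to 7.06 in inhibitor acetate.

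Set beside DMSO vehicle 1 alone, all 4 DMSO acetate libraries were above it for 8 of the 18 enzymes, Acat2, Mvk, Pmvk, Mvd, Fdps, Tm7sf2, Ebp and Dhcr7, and all below it for 8, among them Hmgcs1, Sqle and Lss (all genes, 36.3% above and 38% below). The mean of DMSO acetate was 1.46 times DMSO vehicle 1 for Dhcr7 and 1.39 times for Mvd, but 0.844 times for Sqle and 0.545 times for Insig1. Inhibitor acetate libraries were all above inhibitor vehicle 2 for 13 of 18 enzymes and all below it for 0 (all genes, 29.9% above and 33% below). A single library gives no measure of spread, so these ratios carry no test.

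**Figure D4:**
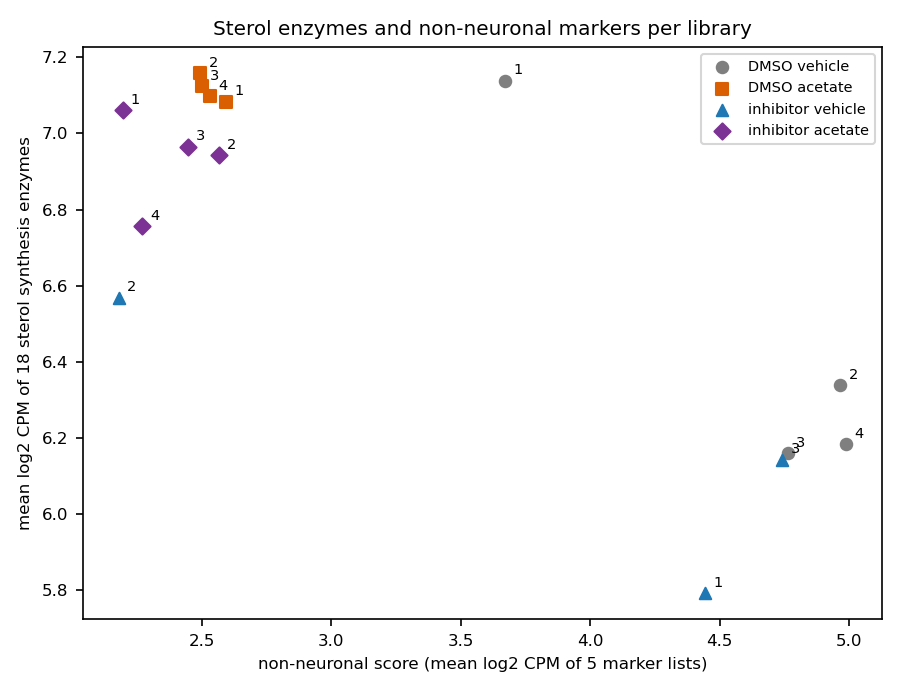
Mean log2 CPM of the 18 sterol synthesis enzymes (vertical axis) against the non-neuronal score (horizontal axis) in the 15 libraries, numbered by replicate within each group. The acetate libraries lie at scores of 2.19 to 2.59, 5 vehicle libraries at 4.44 to 4.99, and DMSO vehicle 1 (3.67) and inhibitor vehicle 2 (2.18) lie apart from the rest of their groups.

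When both of those vehicle libraries were left out, 25 of the 34 genes rose and 4 fell with acetate without inhibitor (all genes, 28% and 31.6%), and likewise 25 and 4 with inhibitor (all genes, 22.5% and 26.7%). Both libraries were seen to stand apart in these same genes, so larger folds and less spread follow in part from leaving them out. The counts and p-values of this fit are therefore no independent support. In it Mvd had log2 folds of 1.8 (adjusted p = 5.82e-11) and 1.61 (adjusted p = 3.33e-09), Hmgcs1 1.12 (adjusted p = 2.11e-07) and 1.35 (adjusted p = 2.18e-07), and Sqle 0.88 (adjusted p = 1.10e-06) and 0.96 (adjusted p = 3.76e-06). Srebf2 passed as well, at 0.43 (adjusted p = 0.000267) and 0.27 (adjusted p = 0.0264). In this fit the difference between arms passed for Srebf1, at -0.50 (adjusted p = 0.0473), and Elovl6, at -0.38 (adjusted p = 0.0472), both lower with inhibitor (2 of 34; all genes, 2.74% lower and 1.56% higher). Without DMSO vehicle 1 alone, 24 rose and 4 fell without inhibitor (all genes, 24.6% and 29.9%), and 21 rose and 3 fell with it (16.8% and 22.7%). Leaving out inhibitor vehicle 2 alone gave 20 higher and 4 lower with inhibitor (all genes, 18.9% and 23.7%). Leaving out inhibitor vehicle 1 gave 5 and 1 there (8.16% and 12.3%), and inhibitor vehicle 3 gave 7 and 1 (8.85% and 12.7%), so the calls over all genes became fewer as well.

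When the non-neuronal score entered the fit of all 15 libraries as covariate, 0 of the 34 genes were called without inhibitor (edgeR; all genes, 7.91% higher and 6.37% lower) and 1 with it (5.38% and 7.04%), Dhcr7 at 0.57 (adjusted p = 0.0286). At an unadjusted p under 0.05 there were 4 and 5. The fold of Mvd was 0.38 (adjusted p = 0.328) and 0.57 (adjusted p = 0.118) in the same fit, and those of Hmgcs1, Abca1 and Acacb without inhibitor were -0.31, -0.40 and 0.43. The score was low in every acetate library and in inhibitor vehicle 2, intermediate in DMSO vehicle 1 (3.67) and high in the other vehicle libraries. Acetate and the score therefore largely cannot be told apart in this fit. For the inhibitor, the same fit called 14 genes lower and 1 higher without acetate (all genes, 6.81% and 7.89%), among them Lss at -0.80 (adjusted p = 0.00470) and Sqle at -0.72 (adjusted p = 0.0170), and 4 lower and 1 higher with acetate (9.13% and 5.7%). Libraries scaled on neuronal markers instead gave 2 higher and 22 lower without inhibitor (all genes, 1.06% and 86.1%), and 4 and 12 with it (0.982% and 68.4%), where the median of all genes was -0.89 and -0.62 on the log2 scale. The medians of the 34 genes, -0.47 and -0.11, lay above those.

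**Figure D5:**
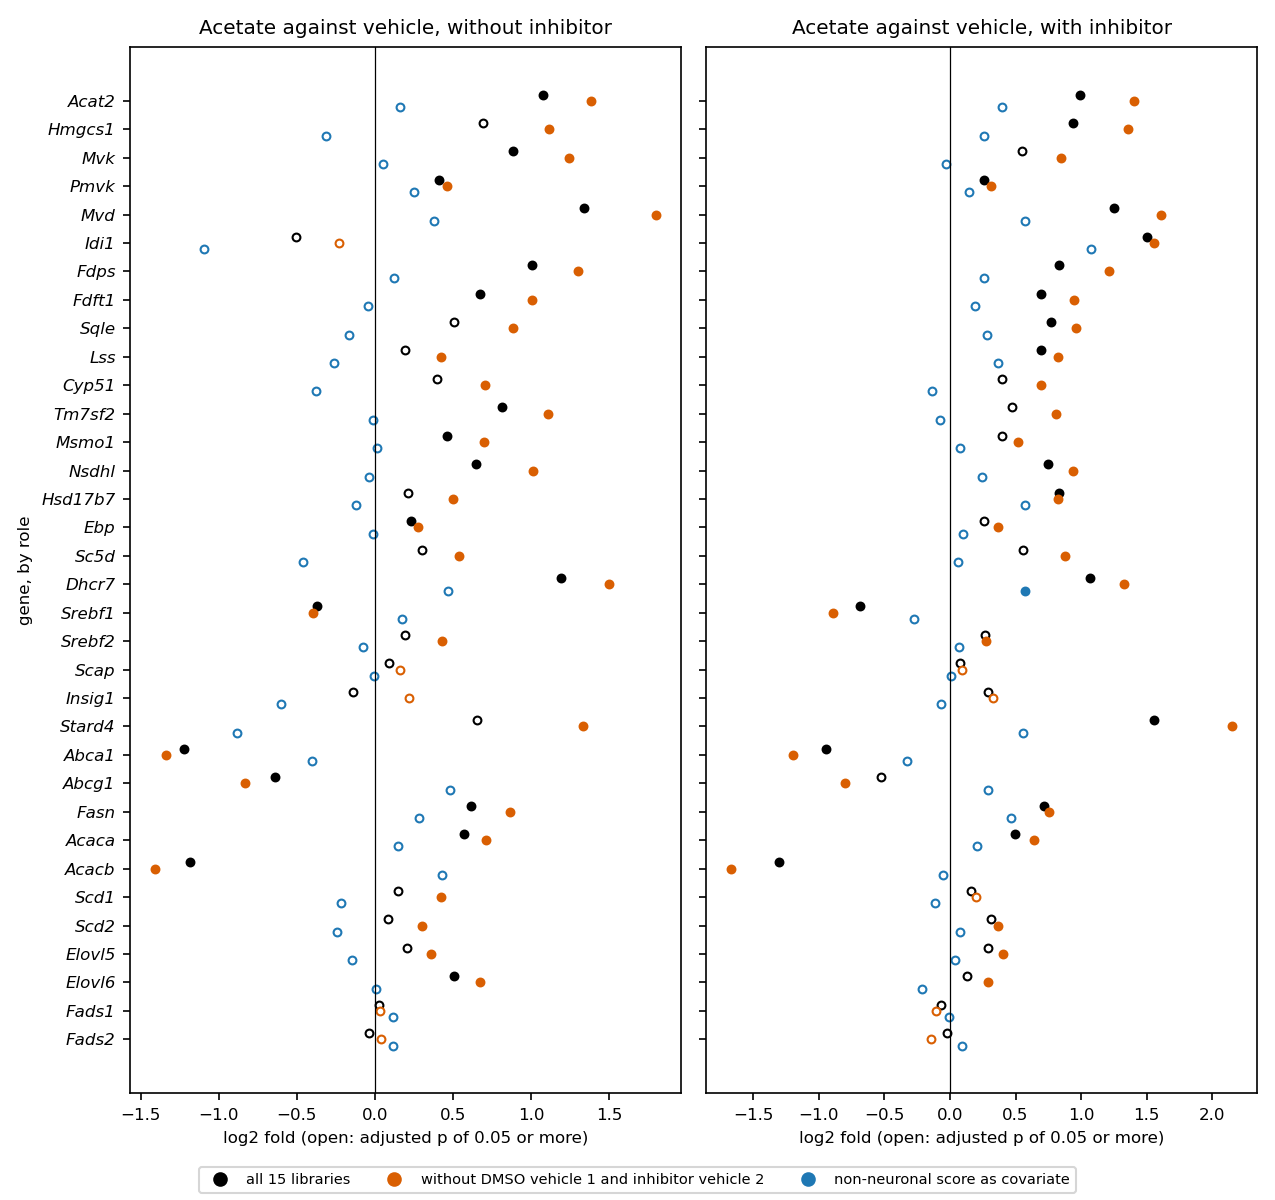
Log2 folds of acetate against vehicle without inhibitor (left) and with it (right) for the 34 genes in 3 fits, all 15 libraries in black, without DMSO vehicle 1 and inhibitor vehicle 2 in orange, and with that score as covariate in blue, where open points had an adjusted p of 0.05 or more. Most enzyme folds are highest in the orange fit and nearest 0 in the blue fit, in which only Dhcr7 with inhibitor is filled.

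Genes around the pathway were grouped in lists by role. Of 8 genes that supply acetyl-CoA and NADPH, 2 rose and 1 fell without inhibitor (all genes, 23.7% higher and 27.5% lower), and 4 rose and 3 fell with it (14.5% and 20.6%). Slc25a1, which exports citrate from mitochondria for lipid synthesis, was at 322, 209, 231 and 245 CPM in DMSO vehicle, against 575, 653, 526 and 565 CPM in DMSO acetate. For the inhibitor groups, 276, 355 and 248 CPM were measured in vehicle and 507, 536, 451 and 493 CPM in acetate. Its libraries did not overlap in either arm, and it rose by 1.2 (SE 0.13, adjusted p = 1.92e-05) and 0.76 (SE 0.14, adjusted p = 0.00191). Acly, which splits that citrate into acetyl-CoA, had folds of 0.51 (SE 0.21, adjusted p = 0.0614) and 0.98 (SE 0.24, adjusted p = 0.00656) (the first 0.82 (adjusted p = 0.000328) without DMSO vehicle 1), and Idh1 rose by 0.65 and 0.55. G6pdx, the entry to the pentose phosphate pathway, fell in both, with folds of -0.64 and -0.73, and Pgd of the same pathway fell with inhibitor (-0.52).

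Of 9 regulators outside the 34, 2 rose and 4 fell without inhibitor, and 2 rose and 2 fell with it, against the same shares of all genes, 23.7% and 27.5%, then 14.5% and 20.6%. These counts, other than that of genes lower without inhibitor, were near those shares. Nr1h3, the liver X receptor alpha, fell with folds of -1.68 (SE 0.43, adjusted p = 0.00474) and -1.67 (SE 0.46, adjusted p = 0.0122) at levels of 1.28 to 5.21 CPM in DMSO vehicle and 0.757 to 1.83 in DMSO acetate. Mlxipl, the carbohydrate response factor, fell with log2 folds of -1.62 (SE 0.31, adjusted p = 0.000682) and -1.69 (SE 0.33, adjusted p = 0.00232). Mbtps2, the protease that makes the second cut in the sterol factors, rose by 0.41 and 0.44.

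Of 18 genes of sterol traffic, storage and turnover, 4 rose and 7 fell without inhibitor (all genes, 23.7% and 27.5%), and 4 rose and 5 fell with it (14.5% and 20.6%), not far from those shares. Scarb1, a lipoprotein receptor, rose by 1.18 (SE 0.16, adjusted p = 7.01e-05) and 0.95 (SE 0.17, adjusted p = 0.00160), and the transporters Abca7 and Abcg4 rose by 0.92 and 0.60 without inhibitor and 0.91 and 0.43 with it. Soat1, which esterifies cholesterol for storage, was at 13.8, 21, 14.6 and 16.2 CPM in DMSO vehicle, against 6.82, 6.29, 6.7 and 7.78 CPM in DMSO acetate. Inhibitor vehicle had 16, 10.2 and 20.1 CPM and inhibitor acetate 8.18, 6.24, 9.13 and 6.12 CPM. It fell with folds of -1.25 (SE 0.20, adjusted p = 0.000196) and -1.06 (SE 0.21, adjusted p = 0.00241), as did the lysosomal cholesterol transporter Npc1 (-0.67 and -0.52). Gramd1b, a sterol carrier of the endoplasmic reticulum, fell without inhibitor (-0.87), and its fold with inhibitor was -0.25.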

How the data were processed

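RNA-seq of 15 libraries was deposited by the authors as 1 table of whole-number read counts per gene symbol, not normalized. Per the submitters' processing notes, the build was mm10 and the tools included STAR 2.5.2a, HTSeq 0.6.1p1 and DESeq2. The libraries were strand-specific, made from total RNA per the labels' protocols. Annotation, counting mode and use of strand: not given in the sources used here. Overlapping and antisense genes are therefore uncertain. Summary lines that name no gene took 38.9% to 47.4% of a library's counts and were left out.

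Groups come from the labels. The analysis used edgeR 4.0.16 and limma 3.58.1 under R 4.3.3: default expression filter, TMM scaling, and a quasi-likelihood fit of all 15 libraries with a mean per group, with Benjamini-Hochberg adjustment over 15075 genes at 0.05. Each SE was taken as the log2 fold over the root of its F value. The mean log2 CPM of marker lists and enzymes used a prior count of 2. DESeq2 1.42.0 and 7 other settings, besides leaving out each library, were tried. Within-group pairs of libraries differed, with a chi-square of 4.65 to 144 per gene over 21 pairs, so none was a copy. Steps were tested on simulated data.

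The 34 genes, the lists, the marker score and the alternatives were chosen with earlier results of these data known. Values per library are given for up to 4 genes of each role with the smallest p in each acetate comparison. They are also given for Srebf1, Srebf2, Insig1, Hmgcs1, Sqle, Fasn, Scd1, Scd2, Abca1 and Abcg1. Related genes are named as examples from each list, not strictly by smallest p, with Acss2 and Acly. Exon lengths came from GENCODE M21 (GRCm38) and promoters from RefSeq.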

Additional observations from a re-analysis of the deposited data

Results flagged for a closer look

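In 13 of the 34 genes DMSO vehicle 1 stood so far above the other 3 DMSO vehicle libraries that the gap took most of the group's range (Dixon's test at 95%). Of the mevalonate arm these were Acat2 (207 against 103 to 110.2 CPM), Mvk (254 against 116 to 126 CPM), Mvd (406 against 159 to 166 CPM) and Fdps (428 against 217 to 230.5 CPM). Of the squalene and sterol ring arm they were Fdft1 (252 against 117 to 129 CPM), Sqle (319.8 against 135 to 154 CPM), Cyp51 (279 against 138 to 157 CPM), Nsdhl (122 against 54.9 to 60.9 CPM) and Dhcr7 (218 against 108 to 118 CPM). The others were Srebf2 (416 against 241 to 253 CPM), Fasn (759 against 429.9 to 443 CPM), Acaca (81.8 against 56.6 to 59.1 CPM) and Elovl6 (158 against 104 to 110.4 CPM).

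In DMSO acetate, replicate 1 was the lowest library for Nsdhl, at 112 CPM against 116 in the other 3, and the highest for Srebf2, at 385 CPM against 305 to 314. In inhibitor acetate, replicate 2 was the highest for Ebp, at 37.6 CPM against 32.4 to 32.9. Chance marks about 1 in 20 groups, and 16 of 102 were marked. Genes read in the same library are not independent, so this count is no test, and the share marked among all genes is not given here. DMSO vehicle 1 differed beyond these genes, with a chi-square of 63.3 to 86.8 per gene against the other DMSO vehicle libraries. Pairs of those others had 4.65 to 16.7. DMSO vehicle 1 also had a non-neuronal score of 3.67 against 4.76 to 4.99, and the part of that score in the marked levels was not tested.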

How the results depend on the processing

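DESeq2, upper-quartile scaling and no low-count filter kept the acetate counts within 1.5 times. So did fits of only the groups compared and a replicate block. With the replicate block, 12 genes were higher and 3 lower without inhibitor (all 15075 genes, 3384 and 3895), and 14 and 3 with it (1908 and 2616). Same-numbered libraries correlated over 0.1 in 6 of 21 pairs (-0.65 to 0.38) once group means were removed. DMSO vehicle 1 and inhibitor vehicle 2 stood apart in small groups, so these values cannot decide whether equal numbers mean a shared culture or batch. Leaving out 1 library in turn gave 10 to 24 higher and 2 to 4 lower without inhibitor (14 and 4 with all), medians 0.25 to 0.51 (all 14955 to 15282 genes tested, 3010 to 3855 higher and 3547 to 4500 lower). With inhibitor it gave 5 to 21 and 1 to 4 (15 and 3), medians 0.29 to 0.67 (all genes, 1245 to 2894 and 1877 to 3616). For the inhibitor without acetate it gave 0 to 1 higher and 0 to 2 lower (all genes, 134 to 1000 and 60 to 630). With acetate it gave 0 to 1 and 0 to 2 (97 to 598 and 90 to 883). The high counts came without DMSO vehicle 1 (24) and the low ones without inhibitor vehicle 1 (5 higher, 1 lower) or 3 (7, 1).

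Without DMSO vehicle 1 and inhibitor vehicle 2 together, acetate gave 25 higher in each arm, with a median of 0.67 with inhibitor. The difference gave 2 lower (all 15232 genes, 237 higher and 417 lower). The inhibitor without acetate gave 1 higher (Abcg1) and 1 lower (Lss), against 413 and 396 of all genes. With acetate it gave 2 higher and 9 lower, against 1050 and 1637. DESeq2 called 1 higher in the difference, 2 lower for the inhibitor without acetate and 1 lower with it (all 15075 genes, 263 higher, 682 lower and 868 lower). Fits of only the 2 groups gave 1 higher and 9 lower for the inhibitor with acetate.

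The covariate gave 0 higher and 0 lower without inhibitor (median -0.013), 1 and 0 with it (0.096), and for the inhibitor 1 and 14 without acetate (median -0.40) and 1 and 4 with it. It turned the sign of 20 of the 34 acetate folds without inhibitor and 8 with it; of these, 7 without inhibitor and 0 with it were called in either fit, Fdft1 -0.047, Tm7sf2 -0.015, Nsdhl -0.040, Ebp -0.011, Srebf1 0.17, Abcg1 0.48 and Acacb 0.43.

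Scaling on neuronal markers gave 2 higher and 22 lower without inhibitor (median -0.47), 4 and 12 with it (-0.11), 0.25 as the median difference between arms and 1 lower for the inhibitor without acetate (all 15075 genes, 45 lower). It turned 21 of the 34 folds without inhibitor and 13 with it. Of these and Acss2, those called in either fit were, without inhibitor, Pmvk -0.43, Fdft1 -0.11, Lss -0.62, Cyp51 -0.39, Msmo1 -0.34, Nsdhl -0.13, Hsd17b7 -0.59, Ebp -0.61, Sc5d -0.50, Srebf2 -0.61, Scap -0.76, Fasn -0.19, Acaca -0.26, Scd1 -0.65, Scd2 -0.72, Elovl5 -0.61, Elovl6 -0.31, Fads1 -0.83 and Acss2 -0.57, and with inhibitor Pmvk -0.32, Ebp -0.31, Srebf2 -0.32, Scap -0.51, Acaca -0.074, Scd1 -0.42, Elovl6 -0.44 and Acss2 -0.097. The median over all genes became -0.89 and -0.62 under this scaling, so these values are relative to neuronal markers. The cause of each change was not tested. Idi1, Stard4, Abcg1 and Acacb were at a few CPM, where folds are least precise.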

Other observations

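Genes that lengthen, activate and esterify fatty acids were called about as often as all genes. Of 19, 5 rose and 5 fell with acetate without inhibitor (edgeR; all genes, 23.7% and 27.5%), and 4 rose and 5 fell with it (14.5% and 20.6%). Tecr, the last reductase of the elongation cycle, rose by 0.82 (SE 0.12, adjusted p = 0.000124) and 0.40 (SE 0.13, adjusted p = 0.0290) on the log2 scale. Fads3, a relative of the fatty acid desaturases, rose by 0.62 (SE 0.08, adjusted p = 4.02e-05) and 0.55 (SE 0.08, adjusted p = 0.000559), and Acsl4, which activates arachidonic acid, by 0.55 and 0.68. Elovl4, an elongase of very long chains, rose by 0.43 and 0.38. Hacd2, a dehydratase of the elongation cycle, fell with folds of -0.66 (SE 0.09, adjusted p = 7.04e-05) and -0.79 (SE 0.10, adjusted p = 0.000158), Acsl5 with -1.09 (SE 0.15, adjusted p = 9.35e-05) and -0.84 (SE 0.17, adjusted p = 0.00231), and Elovl1 with -0.34 and -0.78.

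Genes of the branches that leave the mevalonate arm for prenyl groups, ubiquinone and dolichol were called at a lower share than the 23.7% higher and 27.5% lower of all genes without inhibitor, a description of 7 genes and not a test. Of the 7, 1, Coq2, rose without inhibitor (0.27 (SE 0.09, adjusted p = 0.0238)) and 0 with it (edgeR), where its fold was 0.24, and 0 fell. Ggps1, which makes geranylgeranyl diphosphate, had folds of 0.23 and 0.11.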
